A study of Mus musculus with 8 samples.

Results

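The genes that set the balance between mitochondrial fusion and fission were examined in AML12 cells, a mouse hepatocyte-derived line, with and without 1 h of exposure to pulsed magnetic fields. The list held 10 genes chosen by symbol: Mfn1, Mfn2, Opa1, Oma1, Yme1l1, Dnm1l, Fis1, Mff, Mief1 and Mief2. All 10 were found among the 55401 genes of the deposited tables, and all 10 were abundant enough to test among 12122 genes. RNA-seq was performed on 4 control dishes, which were untreated, and on 4 dishes exposed for 1 h to Opti-ELF-WMF, a train of 4 ms pulses stepping through 1 to 8 Hz at a peak of 100 mG. All dishes came from a single batch of cells, so the tests measure the spread between dishes of 1 line. Control dishes stood in a separate incubator of the same make with no stimulation, so the field and the incubator cannot be told apart.

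Mitochondria form a network that is continually joined and divided. Mitofusins tether and fuse the outer membranes of neighbouring mitochondria, and OPA1 fuses the inner membranes after the proteases OMA1 and YME1L1 have set the balance of its long and short forms. Division is carried out by DRP1, the product of Dnm1l, a cytosolic GTPase that is recruited by receptors on the outer membrane and constricts the organelle. Division also separates damaged parts of the network, which can then be removed by mitophagy, the process that the study followed in these cells. The RNA measurements say nothing about cleavage of OPA1 or recruitment of DRP1, which take place on the proteins.

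Values are TPM, relative abundances of transcripts that are corrected for transcript length and scaled to the same total in every dish, so that genes can be compared with one another but sequencing depth is unknown. The dishes listed from 19386 to 20114 genes above 0. Transcripts of the 37 genes of the mitochondrial genome made up 8.94% ± 0.34 of the TPM of controls (SD, n = 4) but 7.04% ± 0.76 after exposure (SD, n = 4), and the values of each member without them are given beside its fold change, with those of the other scalings. The median log2 fold change of all tested genes was 0.026. Of 7 hepatocyte markers, Krt8, Krt18, Trf, Ttr, Hnf4a and Alb ran from 46.12 TPM for Alb to 2431.42 TPM for Krt8, while Apoa1 was low, between 3.12 and 5.29 TPM. All 4 exposed dishes lay above all control dishes for Krt8 and Krt18, as they did for 8.01% of all tested genes. For Alb and Apoa1, 3 exposed dishes lay below all control dishes (log2 fold changes of -0.15 and -0.22). Ttr was also below 0 (-0.04), while Trf and Hnf4a were above 0 (0.05 and 0.08). The part of these differences in the members' values was not tested. The bile duct markers Krt19, Krt7 and Sox9 were also present, with Krt19 between 1101.36 and 1243.58 TPM. No dish held more than 0.08 TPM of any endothelial marker, 1.2 TPM of any stellate or fibroblast marker or 2.21 TPM of any leukocyte marker, the last being Cd68, and Lrat, Cdh5 and Adgre1 were listed at 0 in every dish.

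Levels in these cells spanned from Fis1, with a mean of 147.6 TPM over the 8 dishes, to Oma1, with 7.96. The receptors Fis1 and Mff were the most abundant members, above 91.3% and 89.6% of the tested genes. Mff (125.8 TPM) was followed by Yme1l1 (58.9), Dnm1l (46.0), Opa1 (36.3), Mfn1 (33.6), Mfn2 (28.7), Mief1 (20.6) and Mief2 (8.96). The order of most neighbours held within each dish. Fis1 lay above Mff, and Mfn1 above Mfn2, in 8 of 8 dishes although their ranges over dishes overlapped. Opa1 lay above Mfn1 in 5 of 8 dishes and Mief2 above Oma1 in 7 of 8, so these neighbours were not separated by their spread. The means of the DRP1 receptors and adaptors thus spanned from 147.6 to 8.96 TPM, while those of the fusion GTPases Opa1, Mfn1 and Mfn2 lay between 28.7 and 36.3 TPM.

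**Figure D1:**
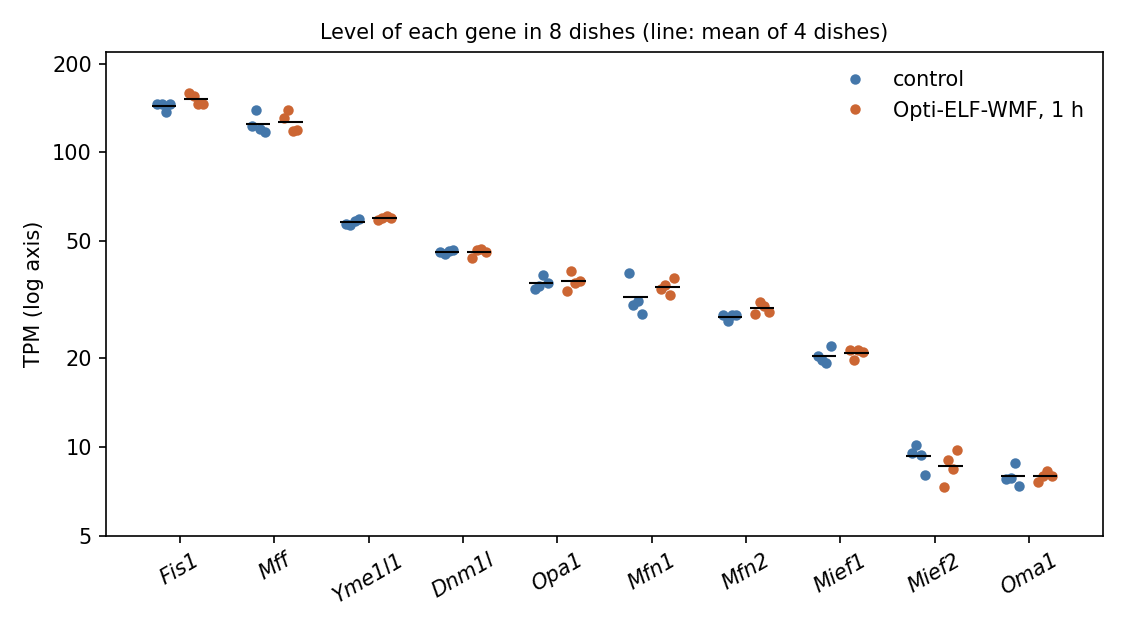
TPM of each gene on a log axis, with 1 point per dish, control dishes in blue, exposed dishes in orange, and a line at the mean of 4 dishes. The genes are ordered by their mean, from Fis1 at 147.6 TPM to Oma1 at 7.96 TPM, and the points of both conditions lie close together for every gene.

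No member passed the test between conditions. Adjusted p-values by limma ran from 0.305 for Mfn2 to 0.988 for Oma1, and the tool called 0 of the 12122 genes at an adjusted p under 0.05 (0% called). At an unadjusted p under 0.05, limma picked 1 of the 10 members, Mfn2, and 1894 of all genes (15.6%). Of these, 1451 were higher after exposure (12.0%), with Mfn2 among them, and 443 lower (3.65%), with no member among them. The direction of such calls over all genes depended on scaling: 76.6% were higher on the deposited TPM, against 42.3% after upper-quartile normalization, 55.2% with median-of-ratios factors and 50.7% with mitochondrial genes left out of the total. The log2 fold change was above 0 for 8 members and below 0 for 2, and above 0 for 63.7% of all tested genes. The median of the members was 0.029 beside the 0.026 of all genes, and the signs of Opa1, Oma1 and Mff turned under other scalings. Exposed and control dishes did not overlap for 1 of the 10 members, which was higher, and for 9.87% of all genes (8.01% higher and 1.86% lower).

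**Figure D2:**
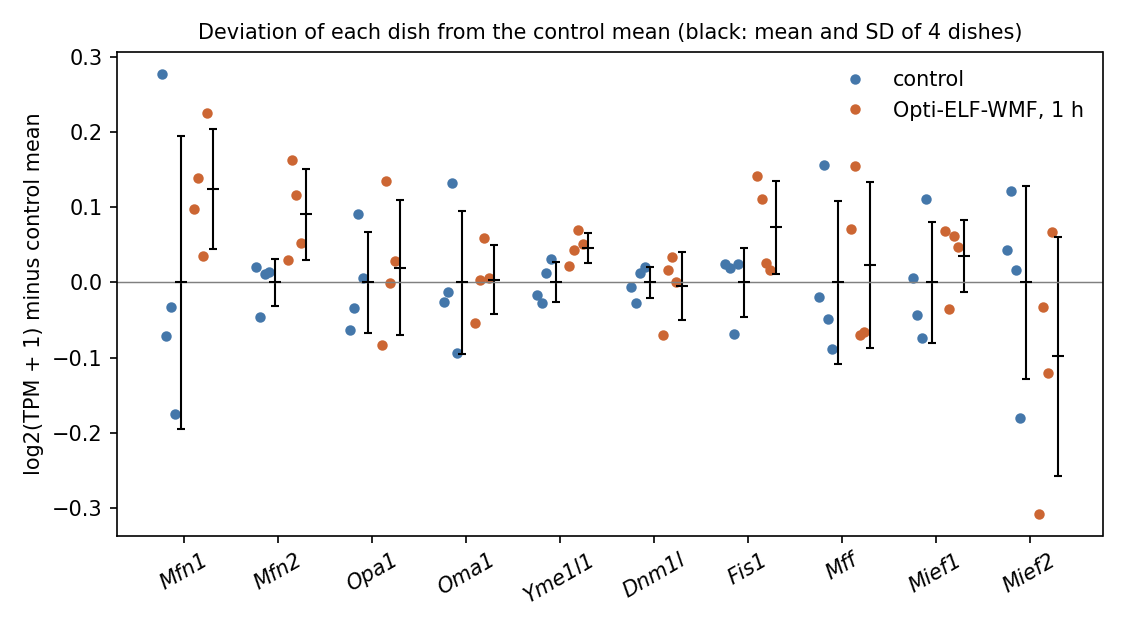
The difference of each dish from the control mean in log2(TPM + 1), with 1 point per dish and black bars for the mean and SD of 4 dishes. The orange points of Mfn2 all lie above its blue points, while for the other 9 genes the conditions overlap, and the widest spreads are those of Mfn1, Mff and Mief2.

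The mitofusins, GTPases of the outer membrane, are encoded by Mfn1 (chromosome 3, 32529465 to 32579239 on GRCm38) and Mfn2 (chromosome 4, 147873599 to 147904704). MFN2 also lies at contacts between mitochondria and the endoplasmic reticulum. Mfn2 was 28.14, 26.81, 27.95 and 27.99 TPM in control dishes and 28.33, 31.14, 30.13 and 28.79 TPM in exposed dishes. All 4 exposed dishes lay above all 4 control dishes, although the lowest exposed dish was only just above the highest control dish. The means were 27.7 ± 0.61 and 29.6 ± 1.28 TPM (SD, n = 4), and the fold change on the log2(TPM + 1) scale was 0.09 (standard error 0.04, 95% interval 0.0030 to 0.18, unadjusted p = 0.0439, adjusted p = 0.305, limma). With the scaling by upper quartile, by median of ratios or without mitochondrial genes the log2 fold change was 0.058, 0.069 and 0.062, with adjusted p-values of 0.56, 0.452 and 0.594 by limma.

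Mfn1 was 39.02, 30.42, 31.28 and 28.25 TPM in control dishes and 34.33, 35.33, 32.82 and 37.58 TPM in exposed dishes. Control replicate 1 held the highest value of all 8 dishes, and the other 3 control dishes were the 3 lowest. The log2 fold change was 0.12 (standard error 0.09, 95% interval -0.07 to 0.32, adjusted p = 0.54, limma), and 0.091, 0.102 and 0.095 under the same 3 scalings. Without control replicate 1 it was 0.22 (adjusted p = 0.185, limma), so the value moved by over 1.5 times with that dish while the adjusted call did not. The ratio of Mfn1 to Mfn2, which no scaling can move, was 1.16 ± 0.16 in control and 1.19 ± 0.09 in exposed dishes (SD, n = 4), with overlapping ranges.

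The promoters of both mitofusin genes are shown because Mfn2 was the member without overlap and Mfn1 is its closest relative, together with that of Opa1, the member whose promoter held a match for NRF1, a factor known for nuclear genes of mitochondrial proteins. Each is the 250 bases before the most upstream RefSeq start on GRCm38.p6, written 5′ to 3′ on the gene's strand (Mfn1, chr3:32529232-32529481, plus strand; Mfn2, chr4:147904910-147905159, minus strand; Opa1, chr16:29579084-29579333, plus strand). Capitals mark matches on either strand to the NRF1 core CGCATGCG, the ETS motif CCGGAAG, the GC box GGGCGG and the CCAAT box, spelled as it is named, and none of these matches overlap.
Mfn1: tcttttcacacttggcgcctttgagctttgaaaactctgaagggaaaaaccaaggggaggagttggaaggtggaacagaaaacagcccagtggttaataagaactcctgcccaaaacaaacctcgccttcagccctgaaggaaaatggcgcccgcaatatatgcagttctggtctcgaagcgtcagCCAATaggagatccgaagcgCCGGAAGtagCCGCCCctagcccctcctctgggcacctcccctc
Mfn2: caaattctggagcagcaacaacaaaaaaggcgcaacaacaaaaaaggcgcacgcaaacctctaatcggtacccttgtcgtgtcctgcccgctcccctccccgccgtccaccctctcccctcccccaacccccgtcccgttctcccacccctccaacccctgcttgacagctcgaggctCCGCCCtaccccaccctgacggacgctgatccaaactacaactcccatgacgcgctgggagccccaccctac
Opa1: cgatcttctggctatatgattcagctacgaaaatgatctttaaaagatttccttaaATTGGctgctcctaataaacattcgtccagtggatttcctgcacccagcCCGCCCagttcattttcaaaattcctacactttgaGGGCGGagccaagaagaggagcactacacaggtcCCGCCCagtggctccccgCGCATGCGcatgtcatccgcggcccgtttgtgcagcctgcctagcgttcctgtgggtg

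A GC box was found in the windows of 10 of 10 members and in 33% of 27025 gene promoters of that length. Those promoters were not limited to the tested genes, whereas all 10 members were tested. CCAAT was found in 7 members and 34.5% of promoters, CCGGAAG in 4 and 7.07%, and the NRF1 core in 1, Opa1, and 1.58%. The YY1 motif AAGATGGCG and the TATA box TATAAA were found in no member, against 0.592% and 13% of promoters. The members' windows held a median of 15 CpG pairs, against 6 over all promoters. Mfn2 had a single GC box in its window. Mfn1 had a CCAAT box, an ETS motif and a GC box close to its RefSeq start. The Mfn2 window stopped at 147904910, upstream of the gene start given above (147904704), and the bases between were not searched. The Mfn1 window ran past the gene start given above (32529465), so the windows of the mitofusin genes were not placed alike. All motifs here are matches of letters, and promoter composition was not compared with the response.

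Opa1 (chromosome 16, 29579334 to 29654884), which encodes the fusion GTPase of the inner membrane, was 34.41, 35.14, 38.39 and 36.15 TPM in control dishes and 33.91, 39.61, 35.98 and 36.72 TPM in exposed dishes. The lowest and the highest values both belonged to exposed dishes. Its log2 fold change was 0.02 (standard error 0.05, 95% interval -0.10 to 0.14, adjusted p = 0.897, limma), and the sign turned under each of the other scalings (-0.013, -0.0025 and -0.0094 for upper quartile, median of ratios and without mitochondrial genes).

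The proteases that cleave OPA1 differed in level, and neither passed the test between conditions. Yme1l1 (chromosome 2, 23156369 to 23199260), an ATP-dependent protease of the inner membrane with constitutive activity, was 57.22, 56.82, 58.43 and 59.18 TPM in control dishes and 58.78, 59.67, 60.8 and 60.02 TPM in exposed dishes. Of the exposed dishes, 3 lay above every control dish, and the remaining one fell within the control range. With 57.9 ± 1.09 against 59.8 ± 0.84 TPM (SD, n = 4), its log2 fold change of 0.05 had the narrowest interval of the 10 genes (-0.01 to 0.11, adjusted p = 0.456, limma). It was smaller under the other scalings, 0.013 by upper quartile, 0.024 by median of ratios and 0.017 without mitochondrial genes. Oma1 (chromosome 4, 103313812 to 103371868), a metalloprotease that is activated when membrane potential is lost, was 7.78, 7.86, 8.8 and 7.38 TPM in control dishes and 7.61, 7.96, 8.31 and 7.98 TPM in exposed dishes. The exposed values lay inside the control range, with a log2 fold change of 0.0034 (standard error 0.06, 95% interval -0.13 to 0.14, adjusted p = 0.988, limma) that was -0.027, -0.017 and -0.023 under the upper-quartile, median-of-ratios and non-mitochondrial scalings. Transcripts of Yme1l1 outnumbered those of Oma1 by a ratio of 7.31 ± 0.57 in control and 7.51 ± 0.17 in exposed dishes (SD, n = 4), ratios whose ranges overlapped.

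Dnm1l (chromosome 16, 16312230 to 16358959), which encodes the fission GTPase DRP1, was 45.84, 45.14, 46.43 and 46.68 TPM in control dishes and 43.8, 46.55, 47.13 and 46.05 TPM in exposed dishes. The exposed dishes surrounded the control dishes on both sides. The means were 46.0 ± 0.69 and 45.9 ± 1.46 TPM (SD, n = 4), with a log2 fold change of -0.0047 and a 95% interval of -0.08 to 0.07 (adjusted p = 0.965, limma). The other scalings gave lower values, -0.038 by upper quartile, -0.027 by median of ratios and -0.034 without mitochondrial genes, with adjusted p-values from 0.666 to 0.763 by limma. The ratio of Opa1 to Dnm1l, the GTPases of inner membrane fusion and of fission, was 0.783 ± 0.032 in control and 0.796 ± 0.039 in exposed dishes (SD, n = 4), and that of Mfn1 to Dnm1l 0.701 ± 0.105 and 0.764 ± 0.051 (SD, n = 4), with overlap in both.

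FIS1 and MFF are tail-anchored proteins of the outer membrane. MFF is a main receptor for DRP1, and FIS1 is linked to division at damaged ends of the network and to mitophagy. Fis1 (chromosome 5, 136953275 to 136966234) was 146.26, 145.63, 137 and 146.27 TPM in control dishes and 158.6, 155.27, 146.3 and 145.45 TPM in exposed dishes. Of the exposed dishes 3 lay above every control dish, one of them by a narrow margin. The means were 143.8 ± 4.54 and 151.4 ± 6.54 TPM (SD, n = 4), and the log2 fold change was 0.07 (standard error 0.04, 95% interval -0.0078 to 0.15, adjusted p = 0.37, limma). Without control replicate 3, its lowest dish, the log2 fold change was 0.051 (adjusted p = 0.598, limma), and with all dishes it was 0.040, 0.051 and 0.044 under the upper-quartile, median-of-ratios and non-mitochondrial scalings (adjusted p = 0.75, 0.667 and 0.684, limma).

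Mff (chromosome 1, 82724890 to 82752394) was 122.84, 138.9, 120.4 and 117.08 TPM in control dishes and 130.9, 138.81, 118.58 and 118.92 TPM in exposed dishes. The highest dish of each condition held nearly the same value, and the exposed dishes lay inside the control range. The log2 fold change was 0.02 (standard error 0.06, 95% interval -0.12 to 0.17, adjusted p = 0.904, limma), against -0.011 by upper quartile, 6.5e-05 by median of ratios and -0.0069 without mitochondrial genes. The ratio of Fis1 to Mff was 1.16 ± 0.09 in control and 1.20 ± 0.05 in exposed dishes (SD, n = 4).

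MIEF1 and MIEF2 (also called MiD51 and MiD49) are adaptors of the outer membrane that recruit DRP1 and regulate its activity. Mief1 (chromosome 15, 80234018 to 80253371) was 20.4, 19.7, 19.26 and 22.03 TPM in control dishes and 21.35, 19.8, 21.26 and 21.03 TPM in exposed dishes. The exposed values lay inside the control range (log2 fold change 0.04, standard error 0.05, 95% interval -0.07 to 0.14, adjusted p = 0.786, limma). The log2 fold change was nearer to 0 by upper quartile (0.0032), by median of ratios (0.014) and without mitochondrial genes (0.0070). Mief1 shares 213 exonic bases on the same strand with the protein-coding gene AC140267.1, which was at 7.24 TPM in control replicate 1, at 1.76 TPM in Opti-ELF-WMF replicate 1 and listed at 0 elsewhere, so reads may have been split between them. Their summed TPM was 22.2 ± 3.85 in control and 21.3 ± 1.37 in exposed dishes (SD, n = 4).

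Mief2 (chromosome 11, 60728398 to 60732951) was 9.57, 10.16, 9.38 and 8.05 TPM in control dishes and 7.29, 9.03, 8.44 and 9.75 TPM in exposed dishes. It had the most negative log2 fold change of the 10 genes, -0.10 (standard error 0.09, adjusted p = 0.662, limma), with 1 exposed dish below every control dish and the other 3 within the control range. Its 95% interval, from -0.30 to 0.11, was also the widest, and the other scalings gave -0.13, -0.12 and -0.13. The ratio of Mief1 to Mief2 was 2.22 ± 0.36 in control and 2.45 ± 0.36 in exposed dishes (SD, n = 4), with overlapping ranges. Dnm1l and Mff overlap genes on the opposite strand that did not exceed 1.33 TPM, and a copy of Dnm1l with 91.1% identity, Gm13719, was listed at 0 in every dish.

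**Figure D3:**
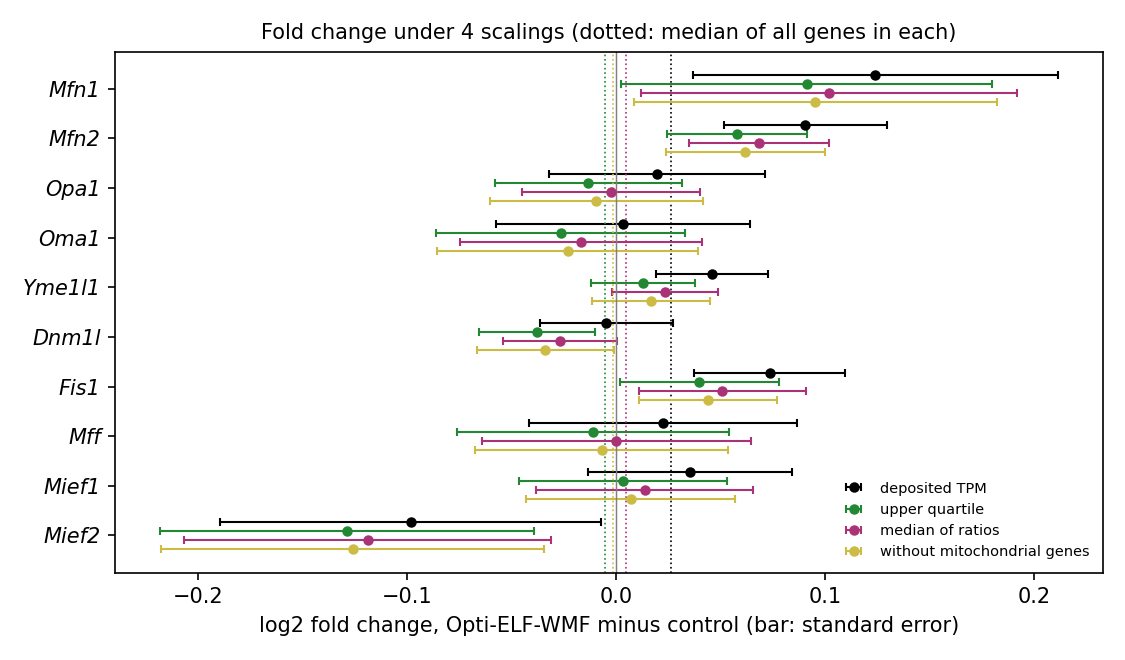
Log2 fold change of each gene, exposed minus control, with standard errors, on deposited TPM and under 3 other scalings, and dotted lines at the median of all genes in each. Points of the other scalings lie to the left of the black points for every gene, and those of Opa1 and Oma1 and, for 2 of the scalings, Mff cross 0.

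Other genes of mitochondrial dynamics were described by 3 lists of 43 genes in all, of which 41 were abundant enough to test and none had an adjusted p under 0.05 by limma. At an unadjusted p under 0.05 limma picked 10 as higher and 0 as lower, against 12.0% and 3.65% of all genes. Exposed and control dishes did not overlap for 4 of the 41 genes, all higher, and for 9.87% of all genes. The 4 were Phb2, Dnajc11, Immt and Apool. The 11 tested genes of fusion and inner membrane cleavage had a median log2 fold change of 0.063, with 4 of them higher at that threshold: Phb2 and Stoml2, scaffold proteins of the inner membrane, and Mtch2 and Opa3. Phb2 was 385.7 ± 8.87 TPM in control and 411.3 TPM on average in exposed dishes (log2 fold change 0.09, adjusted p = 0.187, limma), without overlap, and Stoml2 had a log2 fold change of 0.11 (adjusted p = 0.197, limma). The smallest p-values in the other direction were those of Miga2 (-0.08, adjusted p = 0.411, limma) and Miga1 (-0.08, adjusted p = 0.585, limma), which encode mitoguardins, promoters of outer membrane fusion. Pld6 was below the abundance limit.

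The 15 tested genes of fission had a median of 0.033, with 1 of them higher at an unadjusted p under 0.05. This was Senp5, a SUMO protease that acts on DRP1, at 17.4 TPM in control and 19.2 TPM in exposed dishes (log2 fold change 0.13, adjusted p = 0.274, limma). It was followed by Mtfr2 (0.09, adjusted p = 0.437, limma), and the genes below 0 were Mtfr1l (-0.02) and Mul1 (-0.04), with adjusted p-values of 0.846 and 0.896 by limma. Gdap1 was below the abundance limit.

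The 15 genes of transport and cristae had a median of 0.018, below that of all genes, with 5 of them higher at an unadjusted p under 0.05: Dnajc11, Immt, Mtx1, Samm50 and Chchd3. These encode parts of the MICOS complex, which shapes cristae, and of the sorting machinery of the outer membrane to which it binds. Other listed genes of these complexes did not pass that threshold. Apool, Micos10, Micos13 and Mtx2 had log2 fold changes of 0.07, 0.04, 0.02 and 0.01, and Chchd6 and Apoo of -0.04 and -0.05. Dnajc11 was 35.75, 37.79, 39.74 and 38.68 TPM in control dishes and 40.41, 42.21, 45.3 and 41.41 TPM in exposed dishes, with no overlap (log2 fold change 0.15, adjusted p = 0.167, limma). Immt, which encodes the MICOS core protein mitofilin, was 305.84, 298.26, 300.35 and 301 TPM in control dishes and 314.89, 331.4, 332.38 and 306.9 TPM in exposed dishes, again with no overlap (log2 fold change 0.09, adjusted p = 0.187, limma). The genes with the smallest p-values below 0 were Apoo (-0.05, adjusted p = 0.521, limma) and Trak2 (-0.06, adjusted p = 0.64, limma), and Rhot1 and Rhot2, which encode the Miro proteins that link mitochondria to motors, had log2 fold changes of -0.0068 and -0.03. These counts depended on scaling: after upper-quartile normalization 0, 0 and 1 genes of the lists for fusion, fission and transport were higher at that threshold.

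**Figure D4:**
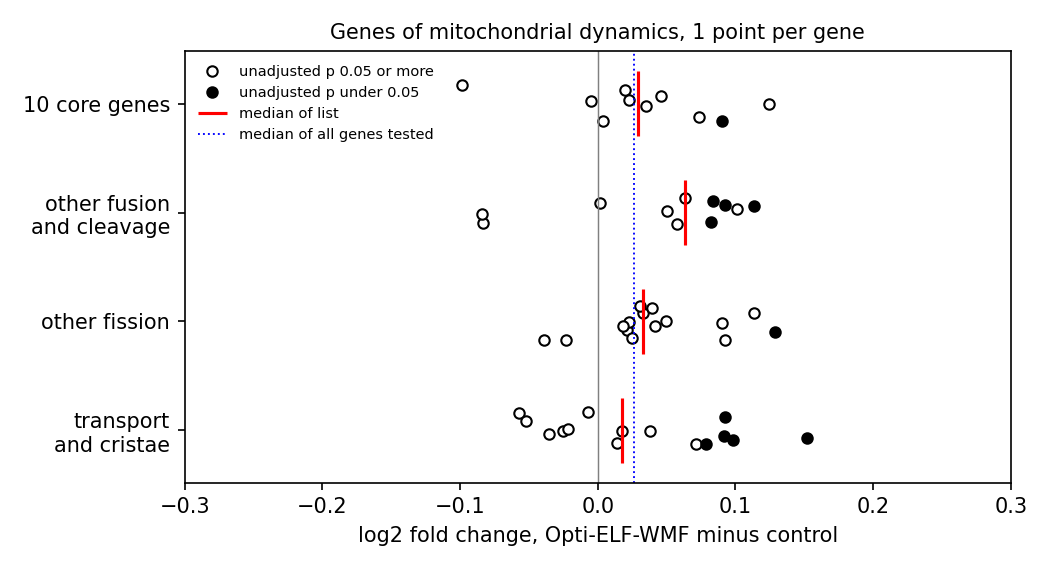
Log2 fold change of each tested gene of the 10 core genes and of the 3 lists, exposed minus control, with filled points for an unadjusted p under 0.05, red lines at the median of each list and a dotted line at the median of all tested genes. Every filled point lies above 0, and the medians of the lists lie between 0.018 and 0.063.

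Across the 8 dishes the members did not vary as 1 block. Pearson correlations of log2(TPM + 1) between members ran from -0.67 for Mief1 with Mief2 to 0.76 for Mfn2 with Yme1l1, over 8 dishes that share their scaling and, in groups of 4, their condition. Among 12112 other tested genes, the profiles most like that of Mfn2 were those of Tubb2b (Pearson r = 0.986, Spearman's rho = 0.976), Ergic1 (0.983 and 0.786) and Rab18 (0.972 and 0.929), where 141 genes exceeded 0.9. Those most like Mief2 were Zfp36l2 (0.946 and 0.857), BC003965 (0.945 and 0.881) and Rbm48 (0.943 and 0.976), where 12 genes did. They are the highest of many values over few dishes and describe these dishes alone.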

How the data were processed

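Total RNA of 4 control and 4 exposed dishes of AML12 cells was sequenced by the authors from stranded mRNA libraries, and the authors deposited 1 table of TPM per dish. The submitters' processing notes name Trimmomatic 0.39, STAR 2.7.4a, RSEM 1.3.3 and mm10, and the annotation release is not given in the sources used here. The deposited TPM sums to the same total in each dish, so depth and counting error are unknown and no interval for counting is given. At most 3.79% of values were equal between any pair of dishes, and each dish counted as 1 sample.

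Genes with TPM of at least 1 in at least 4 dishes were tested on log2(TPM + 1), a scale that understates changes of low genes, with limma 3.58.1 (eBayes with a trend) in R 4.3.3. P-values were adjusted over all tested genes by Benjamini-Hochberg, and limma's 95% intervals are given. The script was tested on simulated data. The members and lists were chosen with earlier results of these data known. By rule, every member is named, with the 2 smallest p-values per direction of each list and the 3 profiles most like Mfn2 and Mief2. Mtch2, Opa3, Mtx1, Mtx2, Samm50, Chchd3, Chchd6, Apool, Micos10, Micos13, Rhot1, Rhot2 and the printed promoters were chosen after their values were seen. Positions, transcripts and overlaps came from GENCODE M21 on GRCm38, where 10 of 10 members matched by identifier, and promoters from RefSeq on GRCm38.p6. The fit had no replicate block. Alternatives were other pseudocounts (0.1 and 0.5), filters and scalings, eBayes without a trend, a replicate block and leaving out each dish.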

Additional observations from a re-analysis of the deposited data

Results flagged for a closer look

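Within the 20 groups of 4 dishes (10 genes in 2 conditions), 2 held a dish far from its fellows by Dixon's test at 95%, which chance alone passes in about 1 of 20 groups. Mfn2 was 26.81 TPM in control replicate 2, against 27.95 to 28.14 in the other control dishes, and without that dish its log2 fold change was 0.075 (adjusted p = 0.516, limma). Fis1 was 137 TPM in control replicate 3, against 145.63 to 146.27 in the others.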

How the results depend on the processing

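Under the 9 other settings and the 8 fits that each left out 1 dish, 0 members had an adjusted p under 0.05 by limma, with a smallest value of 0.185. The number of members higher at an unadjusted p under 0.05 went from 1 to 0 under upper-quartile normalization, median-of-ratios scaling and rescaling without mitochondrial genes, and ran from 0 to 2 with a dish left out. It was 0 without control replicate 2, 3 or 4 or Opti-ELF-WMF replicate 2, was Mfn1 alone without control replicate 1, Mfn2 alone without Opti-ELF-WMF replicate 1, Fis1 alone without Opti-ELF-WMF replicate 3, and Mfn2 and Fis1 without Opti-ELF-WMF replicate 4. None was lower in any setting. Signs turned for Opa1 (-0.013, -0.0025 and -0.0094) and Oma1 (-0.027, -0.017 and -0.023) under those 3 scalings in that order, and for Mff under upper quartile (-0.011) and without mitochondrial genes (-0.0069). With a dish left out, Opa1 ran from -0.019 to 0.054, Oma1 from -0.028 to 0.048, Dnm1l from -0.018 to 0.017, Mff from -0.022 to 0.075, Mfn1 from 0.066 to 0.22, Mfn2 from 0.067 to 0.11, Yme1l1 from 0.037 to 0.056, Fis1 from 0.051 to 0.092, Mief1 from 0.011 to 0.072 and Mief2 from -0.16 to -0.029. The scalings shift nearly all genes alike, and the median of all genes went from 0.026 to -0.0053, 0.0050 and -0.0015.

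Over all genes, those higher at an unadjusted p under 0.05 numbered 588, 823 and 693 under the 3 scalings and those lower 801, 669 and 675, with 832 lower without a filter. With a dish left out they ran from 1066 to 1625 higher and from 330 to 513 lower. An adjusted p under 0.05 was reached by 1 gene with TPM at least 1 in every sample, with upper-quartile or median-of-ratios factors and without a trend, and by 0 to 2 with a dish left out. In the lists, higher genes under the 3 scalings numbered 0, 2 and 1 for fusion and cleavage, 1, 2 and 1 for transport and cristae, where eBayes without a trend gave 3, and 0 for fission under upper quartile and without mitochondrial genes. Lower genes numbered 1 for fusion and cleavage and 1 for transport and cristae under each. With a dish left out, higher genes ran from 2 to 4, 2 to 4 and 0 to 1 in the same order, and lower genes of fusion and cleavage from 0 to 1. The replicate numbers did not pair the dishes (mean correlation of deviations -0.0126, and 0 control dishes correlated best with their own number). With the replicate block Mfn2 was 0.091 (adjusted p = 0.386, limma), Fis1 was 0.073 (adjusted p = 0.31, limma), and 1 member was higher at an unadjusted p under 0.05, as without it, though Fis1 in place of Mfn2. The causes of these changes were not tested.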
